A study of Mus musculus with 6 samples.

Results

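The TNF superfamily ligand genes Tnf, Lta, Ltb and Tnfsf10 were followed in RNA from natural killer (NK) cells exposed to oleic acid (OA), a monounsaturated fatty acid. The members were chosen by gene symbol, and all 4 were among the 559 genes of the deposited table. NK cells purified from the spleens of C57BL/6 mice were kept for 36 h with 0.2 mM OA (3 libraries) or without OA (3 control libraries). The sources used here name neither a vehicle for the control cells nor the age or number of the mice, and they do not say whether the libraries came from separate mice or cultures. The labels state that the treatment was carried out once, so the 3 libraries of a group may stand for a single exposure, and the SDs and p-values measure only the spread between these libraries, which may be technical. The comparison asks how transcript levels in NK cells differ after OA. The table gives TPM, the share of a library that a transcript takes up after correction for its length, and it holds only genes that had an authors' Q value under 0.05 for the same comparison; a gene outside it is called not listed, which does not mean that it did not change.

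Most ligands of the TNF superfamily are made as membrane proteins that assemble into trimers, and several are also released from the cell. TNF acts through the receptors TNFR1 and TNFR2 on inflammation, cell death and survival. Lymphotoxin alpha, the product of Lta, is secreted as a homotrimer that uses the TNF receptors, or joins lymphotoxin beta, the product of Ltb, on the cell surface to engage the lymphotoxin beta receptor, which drives the formation and upkeep of lymphoid tissue. TRAIL, the product of Tnfsf10, is a death ligand that NK cells use against tumour cells. Activated NK cells transcribe all of these genes, but so do other cells: macrophages and other myeloid cells are rich sources of TNF, and B and T cells of lymphotoxins.

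Tnf, Lta and Ltb lie side by side on chromosome 17 within the major histocompatibility complex, and Tnfsf10 lies on chromosome 3. In the GENCODE annotation of GRCm38, the build named mm10 in the submitters' processing notes, Ltb spans chr17:35194439-35196320 on the plus strand, Tnf chr17:35199381-35202007 on the minus strand and Lta chr17:35203165-35205351 on the minus strand. The end of Lta and the start of Tnf are 1157 bases apart, and the 3′ ends of Ltb and Tnf, which face each other, are 3060 bases apart. The trio thus spans 10913 bases, and the gene bodies do not overlap. Tnfsf10 spans chr3:27317028-27342427 on the plus strand.

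**Figure D1:**
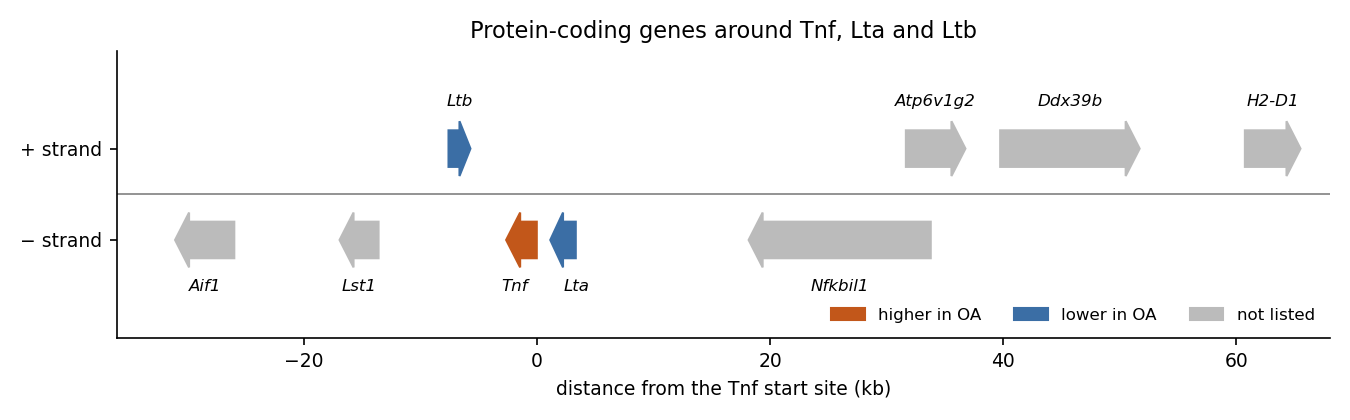
Map of the 9 named protein-coding genes around Tnf (x axis, distance from the Tnf start site in kb; arrows point in the direction of transcription, with the plus strand above the minus strand). Tnf was higher in OA and its neighbours Lta and Ltb were lower, and the other genes drawn were not listed.

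The bases before the start sites of the neighbours are shown because these genes share a locus and differed in direction. Each sequence comes from RefSeq (GRCm38.p6), is read 5′ to 3′ on the gene's own strand and stops at the last base before the earliest start that GENCODE or the RefSeq promoter table gives; a predicted RefSeq model of Lta reaches further upstream. Capitals mark matches, on either strand, to GGGNNNNNCC (a loose kappaB pattern, bound by NF-kB), TATAAA (the TATA box), TGANTCA (AP-1), TTCNNNGAA (the GAS pattern bound by STAT proteins) or GAAANNGAAA (the interferon-stimulated response element).
Tnf promoter, chr17:35202008-35202257, minus strand: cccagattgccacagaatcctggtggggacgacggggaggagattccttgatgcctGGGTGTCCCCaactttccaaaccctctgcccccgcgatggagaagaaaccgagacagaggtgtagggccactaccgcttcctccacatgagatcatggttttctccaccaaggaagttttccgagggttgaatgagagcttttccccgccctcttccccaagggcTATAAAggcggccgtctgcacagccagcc
Lta promoter, chr17:35205352-35205601, minus strand: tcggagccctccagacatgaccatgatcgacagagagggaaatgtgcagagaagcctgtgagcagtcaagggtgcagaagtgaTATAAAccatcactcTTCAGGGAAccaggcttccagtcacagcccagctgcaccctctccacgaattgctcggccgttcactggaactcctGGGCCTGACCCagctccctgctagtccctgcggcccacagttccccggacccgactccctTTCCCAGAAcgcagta
Ltb promoter, chr17:35194257-35194438, plus strand: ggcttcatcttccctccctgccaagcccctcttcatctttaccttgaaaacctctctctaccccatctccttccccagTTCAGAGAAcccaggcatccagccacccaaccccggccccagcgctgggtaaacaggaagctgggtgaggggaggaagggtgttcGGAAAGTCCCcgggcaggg

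In the 250 bases before the RefSeq start, the Tnf window held the TATA box at positions −29 to −24 and a kappaB match, GGGTGTCCCC, at −194 to −185. The Lta window held a TATAAA match at −167 to −162, overlapping kappaB matches between −76 and −66, and 2 GAS matches, TTCAGGGAA at −152 to −144 and TTCCCAGAA at −16 to −8. The Ltb window held a kappaB match, GGAAAGTCCC, at −87 to −78, a GAS match, TTCAGAGAA, at −172 to −164, and 3 overlapping kappaB matches between −40 and −29, beyond the printed stretch. The Tnfsf10 window held no match to these 5 patterns. Of 32851 RefSeq promoter windows of the same length, 45.8% held the kappaB pattern, 12.4% TATAAA, 7.02% the GAS pattern, 6.75% the AP-1 pattern and 2.98% the interferon-stimulated element, so a kappaB match of this form is common. A match describes letters only and is not a measured binding site.

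After OA, Tnf transcripts were modestly higher, while Lta, Tnfsf10 and Ltb transcripts were lower, with Lta showing the largest change. In TPM, mean Tnf was 1.14 times, Lta 0.638 times, Ltb 0.854 times and Tnfsf10 0.689 times the control mean. In limma on log2(TPM + 1) over all listed genes, with Benjamini-Hochberg adjusted p under 0.05, 1 of the 4 rose and 3 fell. The listed genes had already been selected by the authors' Q value for this comparison. The adjusted p-values therefore do not control a false discovery rate, and passing is not independent support for a difference. Of all listed genes, 36% rose (201 genes) and 40.1% fell (224 genes). With the libraries scaled to equal medians of the listed genes, 162 rose and 82 fell. That put 66.4% of calls on the higher side, in place of 47.3% on the deposited scale. At an unadjusted p under 0.05 (limma), 191 rose and 179 fell on the equal-median scale, beside 213 and 252 on the deposited scale. The median shift in log2 fold change from this scaling was −0.01, towards lower in OA. The groups' libraries did not overlap for any of the 4, which was also true of 93.6% of all genes in the table; the table had been selected on these same libraries. The median log2 fold change was −0.36 over the 4 members, beside 0.14 over the whole table.

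**Figure D2:**
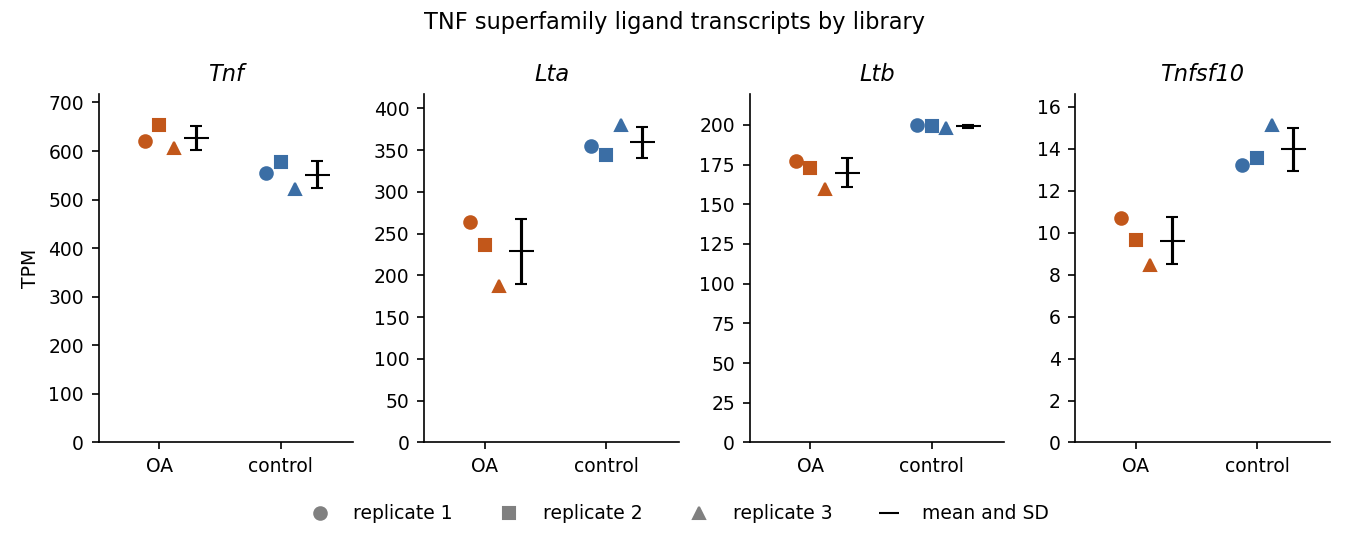
TPM of each ligand gene (y axes, from 0; one panel per gene) in the 3 OA and the 3 control libraries, with symbols for replicates and bars for mean and SD. OA libraries lie above all controls for Tnf and below all controls for Lta, Ltb and Tnfsf10.

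Tnf, which encodes the founding cytokine of the family, stood at 621, 653 and 606 TPM in OA replicates 1, 2 and 3, against 555, 577 and 522 TPM in control replicates 1, 2 and 3. The lowest OA library exceeded the highest control library by 29.3 TPM, so the groups did not overlap, but the gap was close to the spread within them. The means were 627 ± 24.1 TPM in OA and 551 ± 27.6 TPM in control (SD, n = 3 each), a log2 fold change of 0.19 (SE 0.06, 95% interval 0.03 to 0.34, adjusted p = 0.0407, limma). In the authors' deposited table the log2 fold change was 0.19 and the Q value 0.00291. Tnf was the most abundant of the 4 transcripts in every library, and by mean TPM it ranked 43rd of the 559 listed genes in OA and 51st in control. The call was lost with the libraries scaled to equal medians (adjusted p = 0.0789, limma) and on leaving out OA replicate 1 (0.0748), OA replicate 2 (0.121), control replicate 1 (0.096), control replicate 2 (0.0614) or control replicate 3 (0.0824), with log2 fold changes of 0.15 to 0.22 over the left-out libraries. Without OA replicate 3, which carried the most heart muscle transcripts, it passed (log2 0.21, adjusted p = 0.0479, limma).

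Lta, which encodes lymphotoxin alpha, stood at 264, 236 and 187 TPM in OA replicates 1, 2 and 3, against 354, 344 and 379.7 TPM in control replicates 1, 2 and 3. Every OA library was at least 80.1 TPM below every control library, and OA replicate 3 was the lowest. Lta averaged 229 ± 38.8 TPM in OA and 359 ± 18.5 TPM in control (SD, n = 3 each). The log2 fold change was −0.66 (SE 0.14, 95% interval −1.01 to −0.31, adjusted p = 0.026, limma), the 18th largest fall among the listed genes. The libraries in OA varied more, with a coefficient of variation of 16.9% in OA and 5.14% in control. Leaving out OA replicate 2 (adjusted p = 0.0793, limma), control replicate 1 (0.0662), control replicate 2 (0.0507) or control replicate 3 (0.0557) ended the call, with log2 fold changes of −0.77 to −0.52 over all 6 libraries left out. Without replicate 3 of both groups the log2 fold change was −0.48 (adjusted p = 0.025, limma).

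Ltb, which encodes the membrane-bound partner of lymphotoxin alpha, stood at 177, 173 and 159.6 TPM in OA replicates 1, 2 and 3, against 199.8, 199 and 198 TPM in control replicates 1, 2 and 3. The controls lay within a coefficient of variation of 0.423%, and the highest OA library was 20.7 TPM below the lowest of them. Ltb averaged 169.9 ± 9.24 TPM in OA and 199 ± 0.841 TPM in control (SD, n = 3 each), with a log2 fold change of −0.23 (SE 0.06, 95% interval −0.37 to −0.09, adjusted p = 0.0282, limma). The call was lost with the libraries scaled to equal medians (adjusted p = 0.0537, limma) and without OA replicate 2 (0.0806), control replicate 1 (0.0757), control replicate 2 (0.0614) or control replicate 3 (0.0557).

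Tnfsf10, which encodes TRAIL, was the least abundant of the 4, at 10.7, 9.67 and 8.47 TPM in OA replicates 1, 2 and 3, against 13.2, 13.5 and 15.1 TPM in control replicates 1, 2 and 3. The groups did not overlap, with a gap of 2.51 TPM between the highest OA and the lowest control library. Tnfsf10 averaged 9.62 ± 1.13 TPM in OA and 14.0 ± 1.01 TPM in control (SD, n = 3 each). The log2 fold change was −0.50 (SE 0.10, 95% interval −0.75 to −0.25, adjusted p = 0.026, limma), a scale that understates the change of low transcripts; in the authors' deposited table it was −0.53. The call was lost without OA replicate 2 (adjusted p = 0.0793, limma), control replicate 1 (0.0662) or control replicate 2 (0.0507). With a pseudocount of 10 TPM the log2 fold change was −0.29, which still passed (adjusted p = 0.0221, limma). For each of the 4 genes an exact two-sided permutation test over the libraries gave p = 0.1, the smallest that 3 against 3 can give.

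The levels kept the order Tnf, Lta, Ltb, Tnfsf10 in every library. Lta and Ltb, neighbours in this order, were far apart in control (at least 344 against at most 199.8 TPM). In OA the lowest Lta value, 187 TPM in replicate 3, was close to the highest Ltb value, 177 TPM in replicate 1. Within OA replicate 3, the library with the most heart muscle transcripts, Ltb stood at 159.6 TPM. Tnf, Lta and Ltb together made up 1026 ± 63.2 TPM in OA and 1109.5 ± 9.99 TPM in control (SD, n = 3 each). Of that sum, Tnf supplied 58.5%, 61.5% and 63.6% in OA replicates 1, 2 and 3, against 50.0%, 51.5% and 47.5% in control replicates 1, 2 and 3. Lta supplied 22.2% ± 2.59 in OA and 32.4% ± 1.95 in control, and Ltb 16.6% ± 0.268 in OA and 17.9% ± 0.127 in control (SD, n = 3 each).

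Ratios within a library do not depend on how the library was scaled, and they were compared for 4 pairs without a test. There were 2.36, 2.76 and 3.24 TPM of Tnf per TPM of Lta in OA replicates 1, 2 and 3, against 1.57, 1.68 and 1.37 in control replicates 1, 2 and 3. The groups did not overlap. For Tnf against Lta or Ltb this was fixed by the levels themselves. Every OA library was above all controls for Tnf and below all controls for Lta and Ltb. The mean log2 ratio of Tnf to Lta was 0.85 higher in OA, or 0.65 without replicate 3 of both groups. Tnf per Ltb was 3.69 ± 0.166 in OA and 2.77 ± 0.130 in control, and Lta per Ltb was 1.34 ± 0.159 in OA and 1.80 ± 0.0993 in control (SD, n = 3 each), again with no overlap. The ratio of Lta to Tnfsf10, the gene on the other chromosome, stood nearer between the groups, at 24.6, 24.4 and 22.1 in OA replicates 1, 2 and 3, against 26.8, 25.4 and 25.1 in control replicates 1, 2 and 3, still without overlap.

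**Figure D3:**
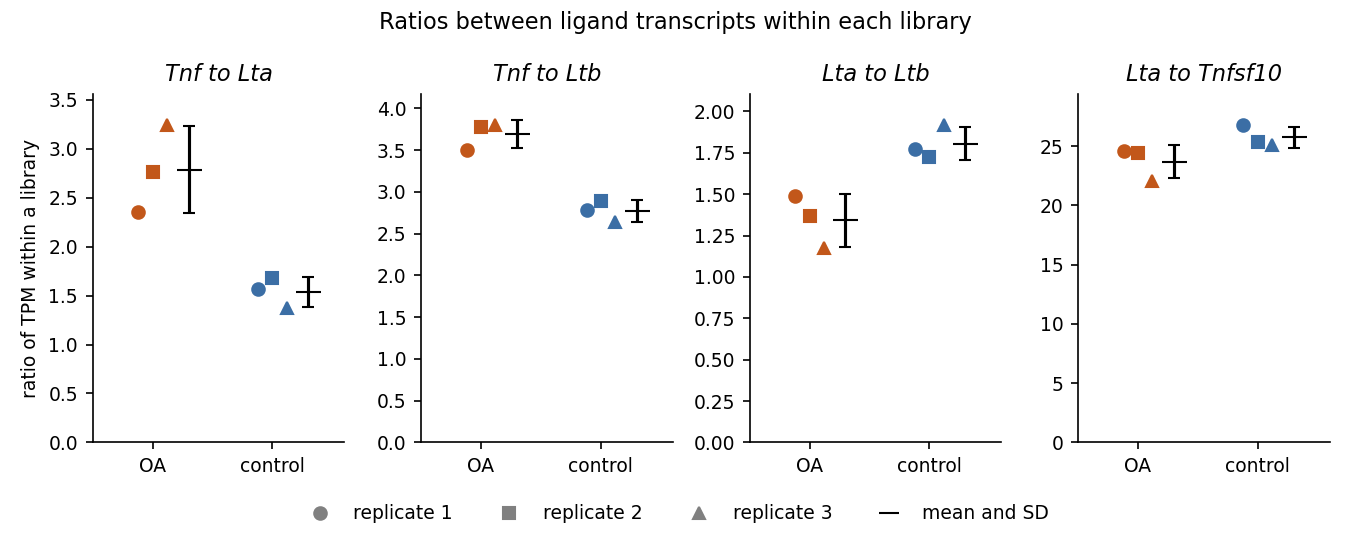
Ratio of TPM between ligand genes within each library (y axes, from 0; one panel per pair), for the OA and control libraries, with symbols for replicates and bars for mean and SD. Tnf to Lta was 2.79 ± 0.442 in OA and 1.54 ± 0.153 in control, and Lta to Tnfsf10 lay between 22.1 and 26.8 in all libraries.

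The profiles over the 6 libraries were compared by the root mean square difference of mean-centred log2(TPM + 1). Among the 4 genes, Lta and Tnfsf10 were the most alike (0.103) and Tnf and Lta the least alike (0.451), with Lta and Ltb at 0.242. The listed genes nearest to Tnf were Abcc1, which encodes an efflux transporter (difference 0.012), Fam129b (0.0184) and Slc7a11, which encodes the cystine transporter subunit xCT (0.0199). Nearest to Lta were Unc5b, a netrin receptor gene (0.0488), Mpp2 (0.0537) and Ly6c2 (0.0618), a marker of monocytes that is also found on lymphocytes. Nearest to Ltb were Arl4c (0.0206), the potassium channel subunit gene Kcnab2 (0.0218) and Ccnd3, which encodes cyclin D3 (0.0232). Nearest to Tnfsf10 were Slamf8 (0.034), the NK receptor gene Ncr1 (0.0353) and the transcription factor gene Klf4 (0.0358). Each was found among 548 named genes that the authors had selected for a group difference, so likeness to a member describes these libraries only.

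Transcripts that mark NK cells and other cell types differed between the same groups of libraries. Summed TPM of the 10 listed of 16 NK markers, such as Ncr1, Klrk1 and Prf1, ranged from 2825 to 3629 in OA and from 4306 to 5145 in control. Most of this sum came from the granzyme genes Gzmb and Gzma and the receptor gene Il2rb. Mean Gzmb, Il2rb and Gzma were 1050, 761 and 542 TPM in OA, and 1551, 966 and 861 TPM in control. The 11 listed of 26 monocyte, macrophage and dendritic cell markers, among them Cd14, Adgre1 and Itgam, summed to 2486 to 2581 TPM in OA and 2043 to 2245 TPM in control. The 6 listed of 14 B cell and plasma cell markers summed to 503 to 592 TPM in OA and 323 to 403 TPM in control, the 2 listed of 13 T cell markers to 194 to 240 TPM in OA and 259 to 291 TPM in control, and the 1 listed of 12 innate lymphoid markers, Cxcr6, stood at 313 to 362 TPM in OA and 413 to 432 TPM in control. The 3 listed of 16 neutrophil, mast cell and basophil markers summed to 621 to 674 TPM in OA and 443 to 554 TPM in control; Mmp8 and Mmp9 rose, but the basophil protease gene Mcpt8 fell (68.05 ± 7.28 TPM in OA and 92.0 ± 3.55 TPM in control, SD, n = 3 each). No listed marker of these cell types was at 0 in any library. By limma all 10 NK markers fell and, of the myeloid markers, 8 rose, 2 fell and 1 did not pass. Cd14, Adgre1 and Itgam were among those that rose. Those that fell were Ly6c2 (91.3 ± 15.3 TPM in OA and 139 ± 4.12 TPM in control) and Ccr2 (110.5 ± 8.02 TPM in OA and 132 ± 10.6 TPM in control; SD, n = 3 each). Clec7a, which did not pass, was also lower in OA. In such bulk RNA fewer cells of a type and less RNA per cell cannot be told apart.

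The 4 genes were also set against these sums as yardsticks, a choice made after the values were seen. The sums hold only markers that the authors had selected for a group difference in these libraries, which partly fixes the direction of each ratio. The ratios are thus a description, and those to NK markers are mainly ratios to Gzmb, Il2rb and Gzma. Per 1000 TPM of NK markers, Tnfsf10 stood at 2.95, 2.83 and 2.998 TPM in OA replicates 1, 2 and 3, against 3.03, 3.14 and 2.94 TPM in control replicates 1, 2 and 3, and the groups overlapped. Lta per 1000 TPM of NK markers was 72.6, 69.2 and 66.2 in OA, against 81.0, 79.8 and 73.8 in control, with no overlap but a narrow gap. Ltb on this scale was higher in OA, at 52.0 ± 3.99 TPM, against 43.5 ± 4.32 TPM in control, and so was Tnf, at 192 ± 21.7 TPM in OA and 121 ± 17.1 TPM in control (SD, n = 3 each). Per 1000 TPM of the myeloid markers, Tnf stood at 249.8, 253 and 235 TPM in OA replicates 1, 2 and 3, against 258, 257 and 256 TPM in control replicates 1, 2 and 3. On that scale every OA library was below every control library, with a denominator of which 8 of 11 genes had risen. Ltb per 1000 TPM of the myeloid markers was 66.7 ± 4.71 TPM in OA and 92.9 ± 4.13 TPM in control (SD, n = 3 each). The part of the cell mixture in the differences of the 4 genes was not tested.

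**Figure D4:**
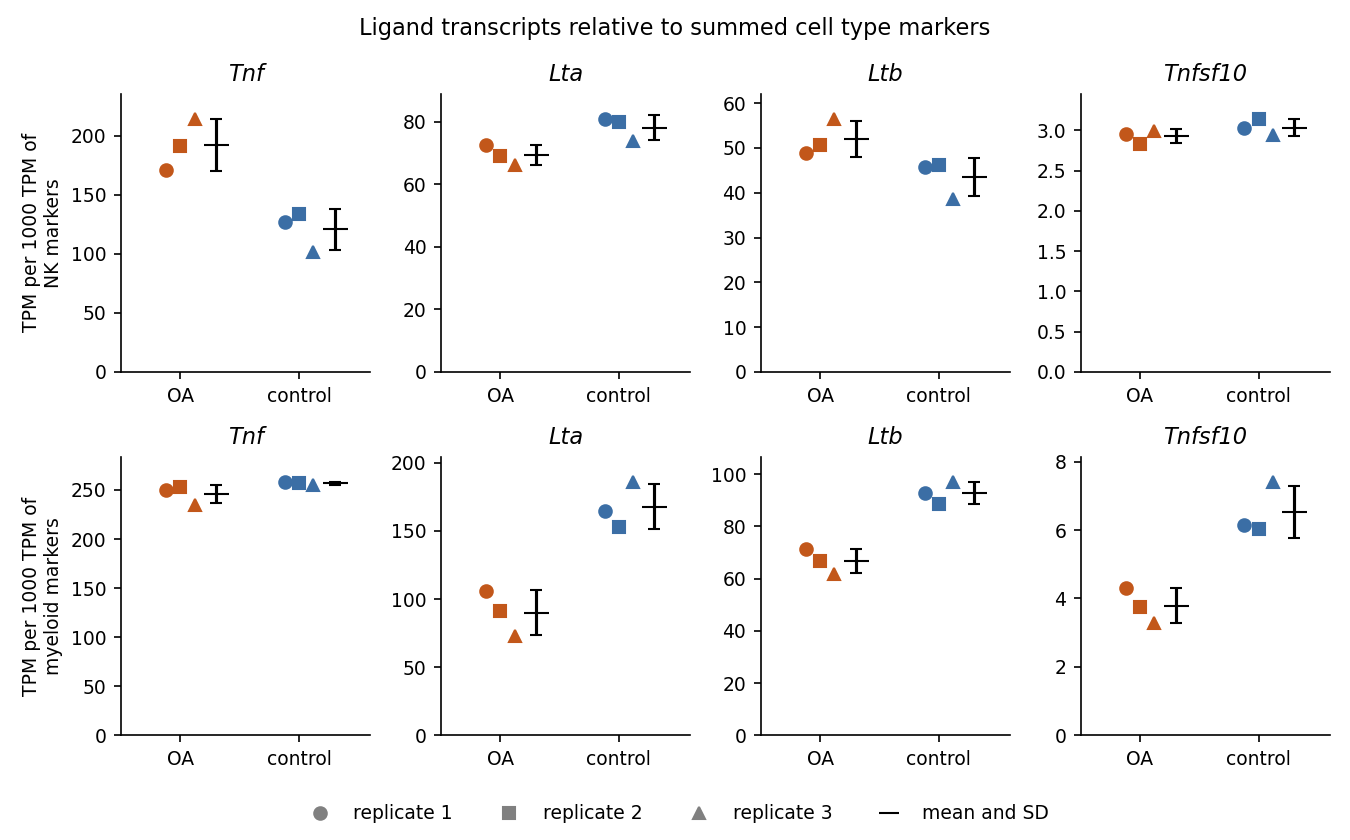
TPM of each ligand gene per 1000 TPM of summed NK markers (upper row) and per 1000 TPM of summed monocyte, macrophage and dendritic cell markers (lower row) in OA and control libraries (y axes, from 0), with symbols for replicates and bars for mean and SD. Tnfsf10 per NK markers was 2.93 ± 0.0854 in OA and 3.04 ± 0.103 in control, and Tnf per myeloid markers was 246 ± 9.49 in OA and 257 ± 1.25 in control.

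OA replicate 3 stood apart by heart muscle transcripts. The 17 listed of 27 heart muscle genes summed to 54.5, 529.5 and 7195 TPM in OA replicates 1, 2 and 3, against 38.1, 63.1 and 47.2 TPM in the control libraries. These genes were then left out and the libraries rescaled to equal sums of the other 542 listed genes. The log2 fold changes of Tnf, Lta, Ltb and Tnfsf10 were 0.20, −0.65, −0.22 and −0.49, and each passed in limma (adjusted p = 0.0275, 0.0206, 0.0209 and 0.0206). The sum covers only genes selected for a group difference, so this is not a correction for heart muscle RNA over the whole library.

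No other ligand of the superfamily was listed, of 14 looked for, among them the death ligand gene Fasl. Of the receptors that these 4 ligands bind, those encoded by Tnfrsf1a, Tnfrsf1b, Ltbr and Tnfrsf10b were also not listed. Of 26 receptor genes of the superfamily 5 were listed, of which 2 rose and 3 fell. The costimulatory receptor genes Tnfrsf9 (4-1BB) and Tnfrsf18 (GITR) and the CD30 gene Tnfrsf8 fell. Tnfrsf9 averaged 304 ± 33.0 TPM in OA and 382 ± 21.6 TPM in control, Tnfrsf18 averaged 128 ± 10.2 TPM in OA and 168 ± 12.2 TPM in control, and Tnfrsf8 averaged 24.9 ± 4.64 TPM in OA and 36.1 ± 5.57 TPM in control (SD, n = 3 each). The genes that rose encode receptors for B cell survival factors: Tnfrsf13c (BAFF receptor) averaged 45.3 ± 3.09 TPM in OA and 29.4 ± 6.48 TPM in control, and Tnfrsf13b (TACI) 52.3 ± 1.64 TPM in OA and 40.2 ± 3.69 TPM in control. The B cell markers above were higher in the same libraries, and their part in this was not tested.

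Downstream of the receptors, both listed of 28 adaptor and death signalling genes fell. Among them Traf4, of the TNF receptor-associated factor family, averaged 21.6 ± 1.23 TPM in OA and 26.7 ± 1.63 TPM in control (SD, n = 3 each). Of 21 NF-kB subunit and feedback genes, Nfkbiz, which encodes a nuclear IkB protein, rose and averaged 133 ± 1.80 TPM in OA and 112 ± 4.79 TPM in control. Tnfaip2 did not pass (423 ± 21.5 TPM in OA and 463 ± 9.37 TPM in control, adjusted p = 0.0745, limma). Both listed of 18 genes of TNF mRNA control and shedding rose. They encode proteins that bring about mRNA decay, and Tnf mRNA is a target of the Zfp36 product. Zfp36 (tristetraprolin) averaged 369 ± 11.1 TPM in OA and 299.5 ± 8.53 TPM in control (log2 0.30, SE 0.05, adjusted p = 0.026, limma), and Zc3h12a (regnase-1) averaged 136 ± 3.41 TPM in OA and 113 ± 5.27 TPM in control. Of 32 genes around the locus, H2-Q4, a class Ib histocompatibility gene, was listed and fell (650.3 ± 15.7 TPM in OA and 713 ± 11.2 TPM in control); it belongs to a family of near-identical copies, so its reads may be shared with them.

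**Figure D5:**
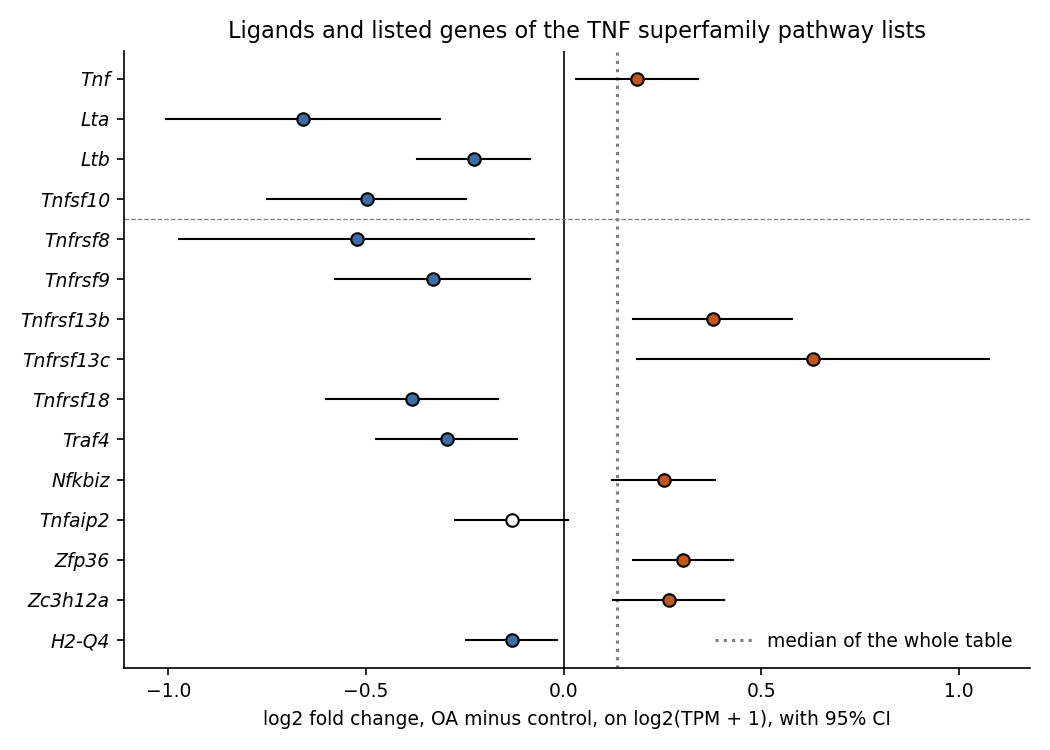
Log2 fold change, OA minus control, on log2(TPM + 1), with its 95% interval (x axis), for the 4 ligand genes (top) and 11 of the 12 listed genes of the pathway lists; filled points passed limma at adjusted p under 0.05. The dotted line is the median of the whole table, 0.14, and Tnfaip2 is the open point.

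Over the 6 pathway lists, 12 of 139 genes were listed, of which 5 rose, 6 fell and 1 did not pass. The median log2 fold change of these 12 was −0.13, beside 0.14 over the table. Of all listed genes, 36% rose and 40.1% fell, and 12 genes are few to set beside these shares. Being listed is itself the authors' call. The largest P and Q values imply about 18009 tests, of which 559 genes were listed. That is the background for the counts of listed genes above. Without control replicate 2, 3 rose and 0 fell (5 and 5 at an unadjusted p under 0.05, limma); without control replicate 3, 5 rose and 0 fell (5 and 4 unadjusted); without OA replicate 3, 4 rose and 3 fell. Without control replicate 1, and without OA replicate 2, limma called 0 of them and 0 of all listed genes (5 and 4 of the 12 unadjusted in each case). With the libraries scaled to equal medians 5 rose and 2 fell.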

How the data were processed

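RNA was extracted with TRIzol and columns and made into MGI libraries, per the labels' protocols. The submitters' processing notes name Bowtie2, RSEM 1.3.1, DESeq2 1.4.5 and mm10 but give them no roles; annotation and strand setting are not given in the sources used here. Per the file headers, the authors deposited TPM per library, mean TPM per group, a log2 fold change (OA over control), a P value (p-value) and Q value (q-value); the largest Q value was 0.0499 over 559 genes. TPM keeps no read numbers, so depth and counting error are unknown.

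Columns were matched to samples by title. Main test: limma 3.58.1 in R 4.3.3 on log2(TPM + 1), all 559 genes, no filter or covariate, two-sided, Benjamini-Hochberg adjusted p under 0.05; the fitting code was tested on simulated data. Because the table is selected on these libraries, its differences are larger than those of unselected genes. For the same reason the adjusted p-values are not independent of the selection. Named genes were the 4 members, every listed pathway gene (1 is not reported here) and the 3 nearest profiles to each member. Members and lists were chosen with earlier results of these data known. Alternatives were other pseudocounts (0.1 and 10), a minimum mean of 1 TPM, equal medians over the listed genes, a replicate block and a trended robust prior. Others were leaving out libraries, and leaving out heart muscle genes with equal sums over the other listed genes. Tables and plots used Python 3.11.15, pandas 2.3.3, scipy 1.17.1 and matplotlib 3.10.9.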

Additional observations from a re-analysis of the deposited data

How the results depend on the processing

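No log2 fold change of the 4 genes changed sign under any of the 14 alternatives, but most of these could not have changed it. Since the groups do not overlap, leaving out libraries or changing the pseudocount cannot reverse a sign. The minimum mean, the replicate block and the trended robust prior leave the log2 fold change as it is. Only the rescalings could have reversed it. Their median shifts in log2 fold change were −0.01 (equal medians) and 0.0099 (heart muscle genes left out). Leaving out each library in turn gave log2 fold changes of 0.15 to 0.22 for Tnf, −0.77 to −0.52 for Lta, −0.26 to −0.18 for Ltb and −0.57 to −0.42 for Tnfsf10, with adjusted p of 0.0479 to 0.121, 0.0357 to 0.0793, 0.0366 to 0.0806 and 0.0357 to 0.0793 (limma), and 0 to 177 higher and 0 to 187 lower genes in the table. Fewer libraries leave fewer degrees of freedom. With the libraries scaled to equal medians, Tnf (0.18) and Ltb (−0.24) no longer passed and 82 genes fell (179 at an unadjusted p under 0.05, limma). The SE of Tnf was 0.072 on this scale and 0.061 on the deposited scale, and that of Ltb 0.079 and 0.057. The cause of these differences was not tested.

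Deviations from the group means correlated over genes at 0.327 between the replicates 1, −0.109 between the replicates 2 and −0.081 between the replicates 3 of OA and control, and at −0.399 to 0.35 between differently numbered libraries. Since only the replicates 1 deviated together, the numbers were not taken to pair the samples. With the replicate block, fitted all the same, the values were unchanged (Tnf 0.19, Lta −0.66, Ltb −0.23, Tnfsf10 −0.50), none passed (adjusted p = 0.121, 0.115, 0.116 and 0.115, limma), and 0 genes rose and 0 fell (149 and 89 at an unadjusted p under 0.05).

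Between members, the mean log2 ratio in OA minus control was 0.73 to 0.96 for Tnf to Lta, 0.38 to 0.45 for Tnf to Ltb, −0.51 to −0.34 for Lta to Ltb and 0.071 to 0.15 for Tnfsf10 to Lta on leaving out each library. Without replicate 3 of both groups Tnf to Lta was 0.65 and Lta to Ltb −0.29. TPM gives no depth, so what depth limits cannot be stated.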
